A study of Mus musculus with 11 samples.

Results

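The genes described here encode 10 secreted proteins of Wnt signalling: the R-spondins Rspo1 and Rspo3, the ligand Wnt5a, and the antagonists Sfrp1, Sfrp2, Sfrp4, Wif1, Dkk2, Dkk3 and Notum. They were chosen by symbol, and each symbol matched 1 row of a 10x table of 27998 genes, of which 17690 had a UMI in the cells kept. All 10 members had UMIs.

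On build GRCm38, with GENCODE gene bounds, Rspo1 lies at chr4:124986430-125009099 and Rspo3 at chr10:29452416-29535867. Wnt5a lies at chr14:28504750-28527448, Sfrp1 at chr8:23411502-23449632, Sfrp2 at chr3:83766321-83774316 and Sfrp4 at chr13:19623104-19632994. Wif1 lies at chr10:121033960-121100650, Dkk2 at chr3:132085292-132180304, Dkk3 at chr7:112116017-112159057 and Notum at chr11:120653788-120661175. Values are sums over each whole gene, as the deposited counts give them.

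The study profiled hepatic mesenchymal cells of adult male Pdgfrb-BAC-eGFP mice on a C57BL/6 background. Every group carried this transgene, in which the Pdgfrb promoter drives eGFP, and cells were sorted as GFP+ CD45- CD102-, so that the samples are meant to hold Pdgfrb-expressing cells only. The 5 10x libraries each pooled 3 mice: uninjured and CCl4 6 wk livers digested by protocol 1 (labelled PF), and uninjured, CCl4 72 h and CCl4 6 wk livers digested by protocol 2 (labelled HSC), which adds a density gradient. The protocols also differed in how the enzymes were applied, in the collagenase, in the viability dye and in the gating strategy of the sort. CCl4 was injected once for the 72 h group and repeatedly for 6 weeks in the chronic group. Smart-seq2 wells on 6 plates held uninjured, CCl4 6 wk and BDL 14 d cells. BDL is ligation of the bile duct, a cholestatic injury.

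Wnt ligands bind Frizzled receptors and LRP co-receptors, and canonical signalling stabilises beta-catenin, which acts with TCF/LEF factors on target genes. R-spondins amplify the signal by binding LGR receptors and sparing Frizzled from the ubiquitin ligases Znrf3 and Rnf43. SFRPs and Wif1 bind Wnt ligands outside the cell, Dkk2 binds the LRP co-receptors, Notum removes the lipid that ligands need, and Dkk3 is a divergent member of its family whose receptor is less clear. In the liver, Wnt ligands and R-spondin from non-parenchymal cells are known to set the pericentral programme of hepatocytes.

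Cells were clustered without the members and without 61 other Wnt pathway genes, and clusters were called FB-like (fibroblast), VSMC-like (vascular smooth muscle cell) or HSC-like (hepatic stellate cell) from marker genes. Protocol 1 gave 4065 FB-like and 1592 VSMC-like cells in the uninjured library, and 2687 and 2865 in the CCl4 6 wk library. Protocol 2 gave 6850, 7115 and 5427 HSC-like cells in the uninjured, 72 h and 6 wk libraries. The FB markers summed to 34784 and 36055 CPM in FB-like cells of the 2 libraries, and to 2632 and 3068 CPM in the VSMC-like ones. The clusters were named from these same markers, so the sums describe the types and do not check the names. Median UMIs per cell ran from 3177 to 11275 over these groups and were higher after injury in each type. Libraries shared 33 to 74 cell barcodes by pairs, at most 1.31% of the smaller library.

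With 1 library per condition and protocol, no 10x difference has a replicate check and none was tested. Levels are CPM, the share of a gene in all UMIs summed over the cells of a type and scaled to 1000000, and the brackets are exact Poisson 95% intervals, which cover counting error only. A gene was past the fold where it reached 10 CPM in the higher library and differed at least 2-fold. Shares are cells with at least 1 UMI.

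In uninjured liver, 9 of the 10 members were highest in FB-like cells, and Rspo3 was highest in HSC-like cells. The uninjured HSC-like cells came only from protocol 2 and the FB-like and VSMC-like cells only from protocol 1. Differences between HSC-like cells and the other types therefore cannot be told apart from protocol and library. Rspo3 in HSC-like cells was at 864 CPM [855 to 872], with a UMI in 94.2% of cells, while FB-like cells were at 57.9 CPM and VSMC-like cells at 49.9 CPM. Rspo1 was the reverse: its level was 114 CPM [109 to 118] in FB-like cells, with VSMC-like cells at 45.5 CPM. It had 0 UMIs in 6850 uninjured HSC-like cells, where 3 UMIs would be 0.0647 CPM. Since genes in fewer than 3 cells of a library were set to 0, UMIs in so few cells may have been removed. The R-spondins were thus highest in different types. Over 40 groups of cells (each cluster in each library, where it had at least 50 cells) Rspo1 and Rspo3 had a Pearson r of -0.75 in log2 levels. This is a description because groups share libraries. Within FB-like cells they did not part: 47.7% of uninjured cells with Rspo3 had a Rspo1 UMI, against 30.8% of the rest (median 4966 and 4885.5 UMIs). The CCl4 6 wk shares were 58.6% and 40.5%, at 7070.5 and 6038 UMIs.

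**Figure D1:**
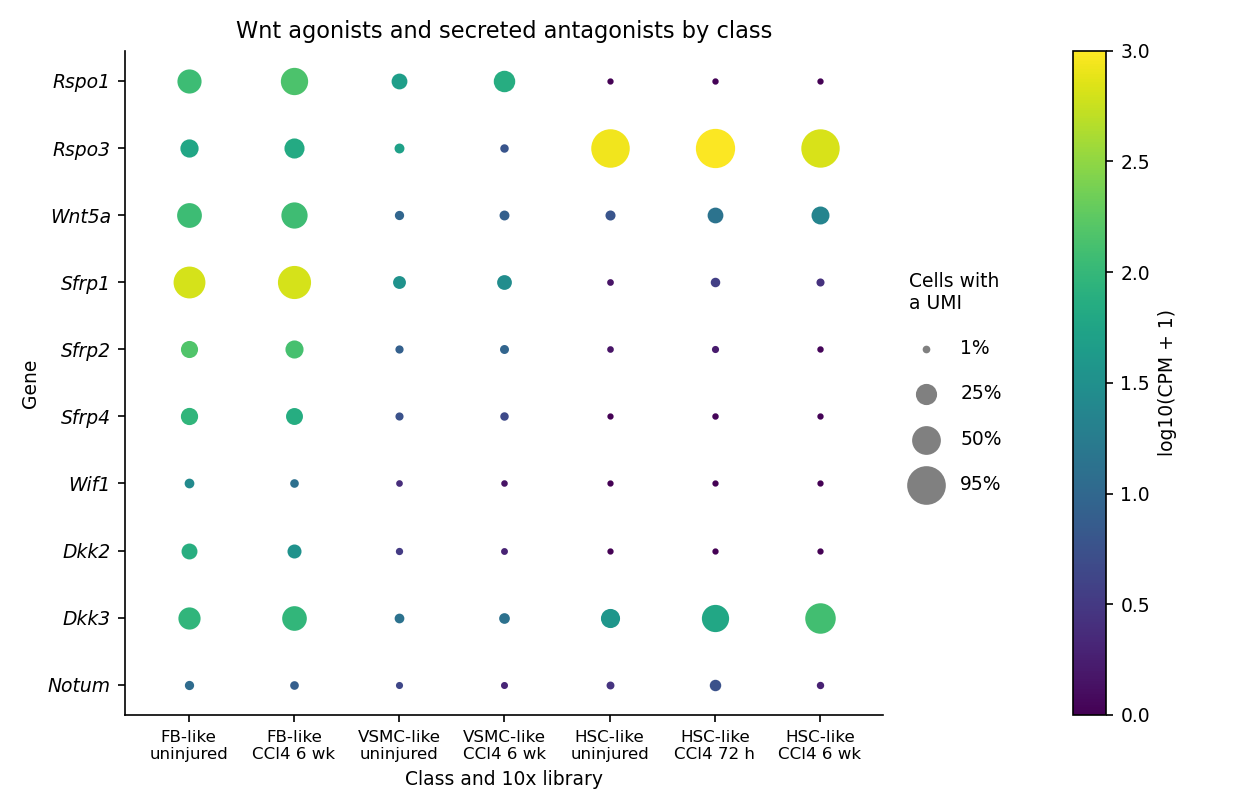
CPM of the 10 members (rows) in FB-like, VSMC-like and HSC-like cells of each 10x library (columns). Colour is log10(CPM + 1) and the size of a dot is the share of cells with a UMI. Rspo3 fills the HSC-like columns at 654 to 960 CPM, while the antagonists other than Dkk3 are at 4.65 CPM or less there.

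The ligand Wnt5a, which mostly signals without beta-catenin, was at 114 CPM [109 to 119] in uninjured FB-like cells, whereas VSMC-like cells had 8.44 CPM and HSC-like cells 5.26 CPM. Sfrp1 was at 633 CPM [622 to 644] in FB-like cells, with a UMI in 62.5% of them, and was at 31.6 CPM in the VSMC-like and 0.453 CPM in the HSC-like type. Sfrp2 was at 147 CPM and Sfrp4 at 91.3 CPM in FB-like cells, and both lay under 10 CPM in the other types. Each of these genes was higher in FB-like cells than in the other types beyond counting error, though HSC-like cells came from another protocol and library.

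Free RNA in a library gives UMIs in cells that do not make a gene, so the FB-like levels are best read beside the VSMC-like cells of the same library. Sfrp1 had a UMI in 62.5% of FB-like and 7.10% of VSMC-like cells, at median depths of 4898 and 3177 UMIs, and Sfrp2 in 15% and 1.44%. Rspo1 did not keep their ratio: it had a UMI in 33.8% of FB-like and 12.3% of VSMC-like cells, and lay above Sfrp1 in VSMC-like cells (45.5 and 31.6 CPM) while far below it in FB-like cells. Rspo3 (57.9 against 49.9 CPM, FB-like first) and Notum (10.0 against 3.34 CPM) did not keep the ratio of Sfrp1 and Sfrp2 either. Rspo3 of the VSMC-like type sat in the small cluster 1-13, described below. The low VSMC-like values of members other than Rspo1 and Rspo3 may hold free RNA. The part of free RNA was not tested for any member.

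Wif1, Dkk2 and Notum were found in few cells. In uninjured FB-like cells, Wif1 was at 25.4 CPM [23.2 to 27.7] in 2.95% of cells, Dkk2 at 75.0 CPM [71.2 to 78.8] in 12.5% of cells, and Notum at 10.0 CPM [8.71 to 11.5] in 2.44% of cells. Wif1 and Dkk2 had 0 UMIs in HSC-like cells of all 3 libraries, after genes in fewer than 3 cells of a library were set to 0. Dkk3 was the antagonist with a level in all types, with 91.3 CPM for FB-like, 36.8 CPM for HSC-like and 12.6 CPM for VSMC-like cells.

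Within FB-like cells the members differed in the clusters where they were highest. Cluster 1-11 (158 uninjured and 90 CCl4 6 wk cells, led by Ptn, Thy1 and Osr2) held 79.0% of the Wif1 UMIs and 77.7% of the Notum UMIs of the uninjured library, at 509 CPM [462 to 560] and 213 CPM. Dkk3 was also highest there, at 242 CPM, while Rspo1 was at 8.39 CPM in the same cluster. Cluster 1-6 (led by F3, Sfrp1 and Gas6) held the highest Sfrp1, at 1578 CPM in uninjured and 1195 CPM in CCl4 6 wk cells.

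Rspo1 and Wnt5a were highest in 3 other clusters. Rspo1 was at 189 CPM in cluster 1-1 (Penk, Ifi205, Scara5), 181 CPM in cluster 1-7 (Mmp3, Fmo2, Vit) and 155 CPM in cluster 1-3 (Angptl1, Fibin, Cilp) of uninjured liver. Wnt5a was at 147 to 149 CPM in these 3 clusters, and their intervals overlapped. Sfrp2 was concentrated in cluster 1-3, at 549 CPM with 74.1% of its UMIs, and Sfrp4 in cluster 1-9 (Ly6c1, Sema3c, Cd55, Pi16), at 302 CPM.

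**Figure D2:**
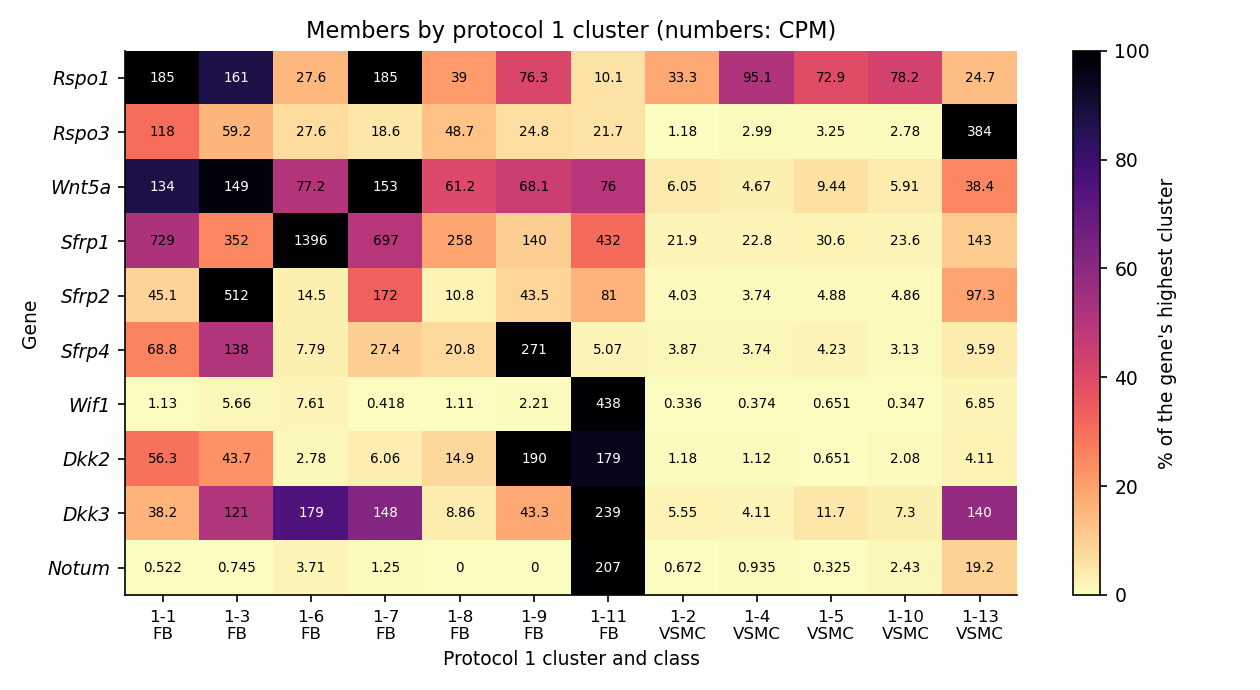
CPM of the 10 members (rows) in 12 named clusters of protocol 1 cells (columns), both libraries summed. Numbers are CPM and colour is the percent of the gene's own highest cluster. Wif1 (438 CPM), Notum (207 CPM) and Dkk3 (239 CPM) peak in cluster 1-11, Sfrp1 (1396 CPM) in 1-6, Sfrp2 (512 CPM) in 1-3, and Rspo3 (384 CPM) in the VSMC-like cluster 1-13.

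The same cells often carried Wif1 and Notum. Of 120 uninjured FB-like cells with a Wif1 UMI, 39.2% had a Notum UMI, against 1.32% of cells without Wif1. The shares in the CCl4 6 wk library were 40.8% of 49 cells and 1.14%. Wnt5a had a UMI in 38.3% of Wif1 cells and 35.7% of the rest. Rspo1 went the other way, with a UMI in 10.0% of Wif1 cells and 34.5% of the rest, although cells with Wif1 were slightly deeper (median 5254 against 4885 UMIs).

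The genes whose log2 levels were most like each member's over the 40 groups were picked from 9241 genes by Pearson r. Wif1 was nearest to Sp5 (r = 0.88) and Tnfrsf19 (0.86), both of which were on the pathway list as Wnt targets. Sfrp1 was nearest to Fmo2 (0.99) and Fmo1 (0.97), Sfrp4 to Pcolce2 (0.94), and Wnt5a to Aebp1 (0.94). Rspo1 was nearest to Slit3 and Ebf1 (both 0.95), Rspo3 to Rai14 (0.92) and Il6st (0.92), Dkk2 to Fez1 (0.90), and Dkk3 to Fam180a (0.86).

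After 6 weeks of CCl4, FB-like cells had lower Wif1 and Dkk2. Dkk2 went from 75.0 CPM [71.2 to 78.8] to 31.6 CPM [29.0 to 34.4], a ratio of 0.422 [0.38 to 0.47], and Wif1 from 25.4 CPM to 11.5 CPM [10.0 to 13.3], a ratio of 0.455 [0.384 to 0.537]. These were the 2 members past the fold, in a comparison where 165 of 8427 genes at 10 CPM (1.96%) passed it. Sfrp4 (0.780 [0.725 to 0.839]), Sfrp2 (0.877 [0.830 to 0.927]) and Notum (0.693 [0.549 to 0.873]) were also lower beyond counting error but not past the fold. The other 8 members, these included, had ratios of 0.693 for Notum to 1.23 for Rspo1, with Sfrp1 at 633 CPM in both libraries (ratio 1.00 [0.975 to 1.03]). The members' median log2 ratio was -0.09 and that of all genes -0.01. In the same FB-like cells the VSMC markers summed to 614 CPM before and 1645 CPM after (Acta2 at 271 and 799 CPM), and their part in these ratios was not tested.

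The shares of the FB-like clusters differed between the libraries, and the ratio was not the same in each cluster. In cluster 1-9, which went from 453 to 178 cells, Dkk2 was at 279 CPM [259 to 299] in uninjured and 16.1 CPM in CCl4 6 wk cells. In cluster 1-11 it was at 176 and 184 CPM, and in clusters 1-1 and 1-3 at 71.8 and 50.1 CPM before against 44.7 and 33.5 CPM after. Wif1 in cluster 1-11 was at 509 CPM before and 329 CPM [282 to 380] after. With each cluster weighted by its uninjured cell number, the Dkk2 ratio was 0.442 and the Wif1 ratio 0.573, which is no longer past the fold.

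**Figure D3:**
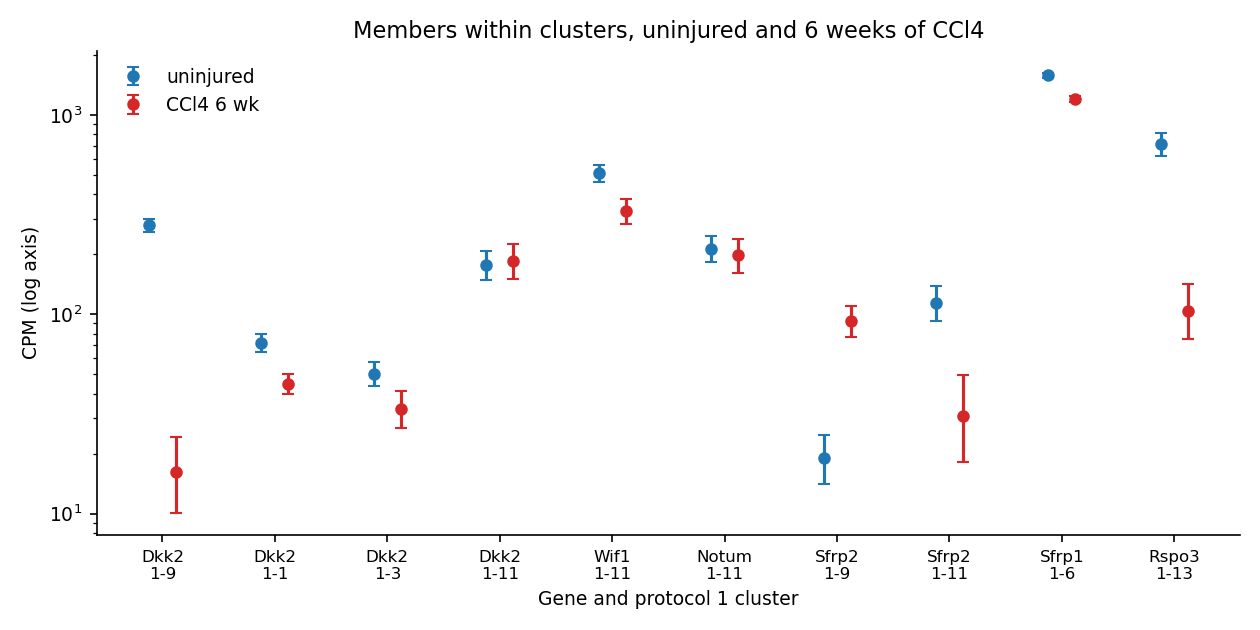
CPM on a log axis, with exact Poisson 95% intervals, of members in single clusters of uninjured and CCl4 6 wk protocol 1 cells. Dkk2 in cluster 1-9 drops from 279 to 16.1 CPM while Dkk2 (176 and 184 CPM) and Notum (213 and 197 CPM) in cluster 1-11 stay within overlapping intervals.

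Rspo1 in cluster 1-9 moved opposite to Dkk2, from 58.9 CPM [50.1 to 68.8] to 110.4 CPM [93.5 to 130]. In cluster 1-1 Rspo1 was at 189 and 183 CPM, with overlapping intervals. Sfrp2 was at 549 and 454 CPM in cluster 1-3, and at 123 and 210.0 CPM in cluster 1-7.

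The bases just before the gene starts of Dkk2 and Wif1 are shown because these 2 antagonists were the members lower past the fold in FB-like cells. They are RefSeq sequences of build GRCm38.p6, upstream of the start on the plus strand and ending at the base before the annotated gene, at chr3:132085042-132085291 for Dkk2 and chr10:121033754-121033959 for Wif1. Capitals mark TATAAA, read on either strand.
Dkk2: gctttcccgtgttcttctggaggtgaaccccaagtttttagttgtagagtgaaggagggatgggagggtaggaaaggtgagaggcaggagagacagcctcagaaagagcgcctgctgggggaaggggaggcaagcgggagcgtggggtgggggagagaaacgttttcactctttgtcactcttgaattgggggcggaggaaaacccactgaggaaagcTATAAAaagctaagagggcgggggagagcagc
Wif1: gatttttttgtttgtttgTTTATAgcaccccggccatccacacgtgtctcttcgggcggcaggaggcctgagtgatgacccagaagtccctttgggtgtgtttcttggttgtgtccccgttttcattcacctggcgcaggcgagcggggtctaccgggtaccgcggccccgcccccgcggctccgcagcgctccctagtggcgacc
The GC content was 55.6% for Dkk2 and 61.7% for Wif1. TATAAA stood in 12.4% of 32851 promoter windows of 250 bases. The core letters of the TCF/LEF motif, CTTTGA on either strand, stood in 13.8% of windows and in 0 of the 4 members that had an entry (Dkk2, Rspo1, Sfrp2 and Wif1), which says only that these letters are not in the windows.

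In VSMC-like cells 1 of the 4 members at 10 CPM was past the fold, Rspo3, from 49.9 CPM [43.9 to 56.4] to 5.20 CPM [4.03 to 6.6], a ratio of 0.104 [0.078 to 0.137], where 268 of 8100 genes (3.31%) passed. The value came from 1 small cluster. Cluster 1-13 (77 and 67 cells, led by Npnt, Tnnt2 and Actg2) was at 710.0 CPM in the uninjured and 104 CPM in the CCl4 6 wk library, and without it no member was past the fold. In Smart-seq2 VSMC-like wells, given below, the Rspo3 mean was not lower after CCl4. Rspo1, whose VSMC-like level was highest in cluster 1-4, was at 45.5 and 73.1 CPM, a ratio of 1.61 [1.39 to 1.86], and its share of cells was 12.3% and 25.8% at median depths of 3177 and 4484 UMIs. The VSMC-like cells were spread differently over clusters in the 2 libraries: 1-2 held 831 and 575 cells, 1-4 held 399 and 809, 1-5 held 240 and 872, and 1-10 held 45 and 542. Within clusters Rspo1 was at 27.9 and 38.1 CPM in 1-2, 81.5 and 99.5 CPM in 1-4 and 55.5 and 76.9 CPM in 1-5, each pair with overlapping intervals. The other members in VSMC-like cells lay between 0.388 and 31.6 CPM.

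HSC-like cells carried Rspo3 throughout, at 864, 960.2 and 654 CPM in uninjured, 72 h and 6 wk libraries, so that its 6 wk ratio was 0.757 [0.746 to 0.768]. Wnt5a and Dkk3 were higher after injury. Wnt5a was at 5.26 CPM [4.62 to 5.96], 12.7 CPM [12 to 13.5] and 21.7 CPM [20.4 to 23.0], and Dkk3 at 36.8 CPM [35.1 to 38.6], 60.2 CPM [58.6 to 61.9] and 123 CPM [120.3 to 126] in the same order. The intervals of the 3 libraries did not overlap for either gene.

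Against uninjured cells, Wnt5a was past the fold at 72 h, with a ratio of 2.42 [2.1 to 2.79], where 1363 of 8377 genes (16.3%) passed. Dkk3 had a ratio of 1.63 [1.55 to 1.73] there. At 6 wk, Wnt5a had a ratio of 4.12 [3.58 to 4.75] and Dkk3 of 3.35 [3.17 to 3.53], where 358 of 8133 genes (4.4%) passed. These 2 genes and Rspo3 were the 3 members at 10 CPM, and the median log2 ratio of all genes was -0.22 at both times. Wnt5a reached 10 CPM only in the injured libraries, so it could be counted only as higher. Cells thinned to 2000 UMIs gave the same order, with Wnt5a in 1.14%, 2.64% and 4.05% of cells and Dkk3 in 6.62%, 10.9% and 21.3% (3.33%, 12.2% and 16.9%, and 19.7%, 44.3% and 56.9%, before thinning).

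HSC-like clusters were nearly particular to a library, so that values after injury come from other clusters than those before. Among 6 wk cells, Dkk3 reached 226 CPM and Wnt5a 47.9 CPM in cluster 2-11 (762 cells, led by Fam180a and Alcam), with Rspo3 at 525 CPM. Cluster 2-13 of uninjured liver (485 cells, led by Gcgr and Procr) had Rspo3 at 315 CPM and Dkk3 at 13.4 CPM, while Rspo3 was at 1039 CPM in cluster 2-2 of the 72 h library. The HSC marker list itself summed to 27248, 5953 and 14982 CPM in uninjured, 72 h and 6 wk cells, and its part in these differences was not tested.

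HSC-like cells were also split in each library into a portal and a central side, by a score over portal and central genes that the study had chosen on these samples, so the split is not independent evidence of a direction. Each member was left out of its own score. Rspo3 is itself 1 of the study's 29 central genes, picked in uninjured cells, so its side there restates that choice. No other member is on either list. Rspo3 was lower on the portal side in all 3 libraries, at 569 against 1107 CPM in uninjured, 552 against 1064 CPM at 72 h, and 460.4 against 744 CPM at 6 wk. Dkk3 had the same side, at 22.8 against 48.0 CPM, 28.1 against 68.3 CPM and 46.1 against 157 CPM.

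Wnt5a was not higher on the central side in uninjured cells, at 5.95 CPM portal and 4.71 CPM central, and was higher on the central side at 72 h (7.22 and 14.1 CPM) and at 6 wk (13.7 and 25.1 CPM). With cells split at the median score instead, the 72 h values were 11.2 and 14.1 CPM, a smaller difference in the same direction. Smart-seq2 HSC-like wells of the 2 uninjured portions on plate 6 had Rspo3 at 333 and 499.97 RPM on the portal side, against 981 and 965 on the central side. Dkk3 there was at 9.70 and 105 portal, against 126 and 207 central. Wnt5a was higher on the portal side in both portions, at 16.3 against 2.00 RPM and 10.9 against 6.35 RPM. Few wells set these values: 13.6% of 59 portal and 4.21% of 95 central wells had a read in portion 2. In portion 3 the shares were 7.69% of 52 and 4.72% of 106 wells.

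**Figure D4:**
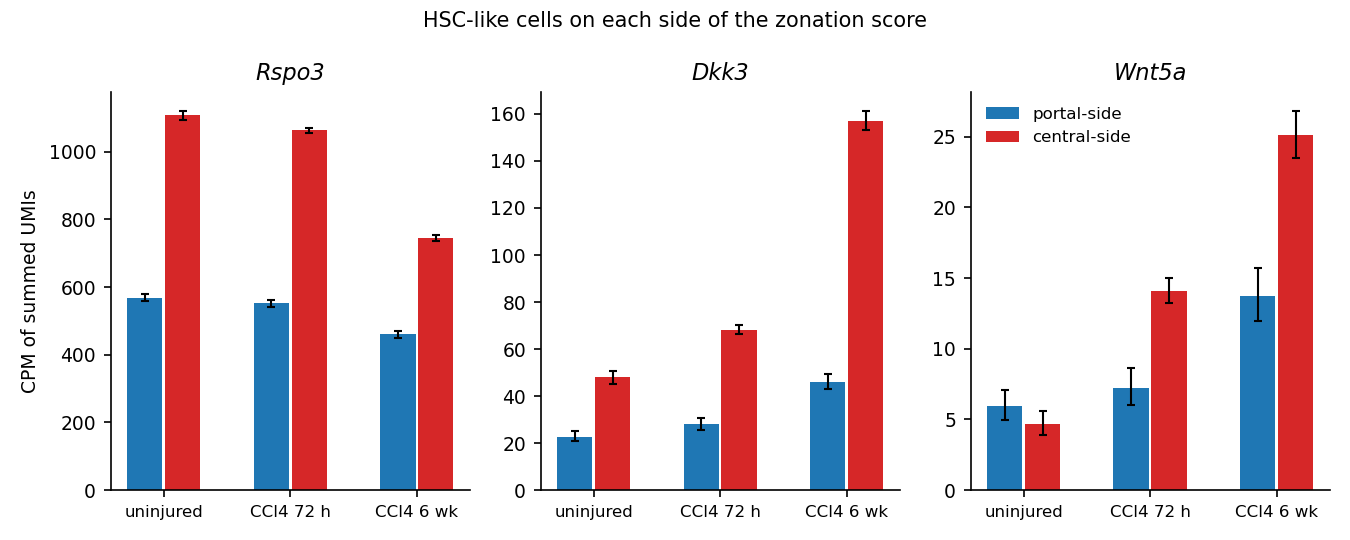
CPM of Rspo3, Dkk3 and Wnt5a on the portal and central side of HSC-like cells in the uninjured, CCl4 72 h and CCl4 6 wk libraries, with exact Poisson 95% intervals. Rspo3 and Dkk3 bars are higher on the central side in each library, and Wnt5a bars only in the 2 injured ones.

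HSC-like cells of each library were ordered into 3 groups of equal size by their summed fibrillar collagen CPM. Dkk3 was higher in each higher group of each library, at 28.9, 36.9 and 45.1 CPM in uninjured, 38.9, 66.7 and 70.9 CPM at 72 h, and 81.3, 121 and 165 CPM at 6 wk. Wnt5a followed this order in the injured libraries, at 7.21, 11.4 and 18.2 CPM at 72 h and 12.6, 19.1 and 32.7 CPM at 6 wk, but was at 5.24, 4.47 and 6.13 CPM in uninjured cells. Rspo3 did not. With cells thinned to 2000 UMIs, Dkk3 at 72 h was at 38.0, 70.4 and 69.6 CPM, so the order of its upper groups did not hold there.

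In Smart-seq2 the unit is a portion, the wells of 1 mouse on 1 plate by the deposited layout, and values are RPM, reads scaled to 1000000 over its summed wells. The layout uses the same names on several plates: BDL names on plates 1, 2 and 4, CCl4 names on plates 3 and 5, and Uninjured on plates 1 to 5. Portions of any condition may therefore not all be separate mice, and p-values may be too small. FB-like wells came to 157 in 5 uninjured, 287 in 5 BDL and 219 in 4 CCl4 portions. An unnamed cluster of 115 wells, S-8 (led by Tnfrsf19, Gfra2 and Cyp2e1, with 81 uninjured, 34 CCl4 and 0 BDL wells), was kept apart. Its FB score was the highest of the 3 types, at 0.51, above the 0.49 and 0.41 of the FB-like clusters S-6 and S-10, and it stayed unnamed because its 10 leading genes held a hepatocyte marker (Cyp2e1) and no FB marker.

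The FB-like wells of the conditions came largely from different clusters. S-6 (led by Cxcl5, Chl1 and Saa3) held 0 uninjured, 28 BDL and 148 CCl4 wells, and S-10 (with Col12a1 and Col8a1 among its leading genes) held 0 uninjured, 69 BDL and 1 CCl4 well. S-4 held 129, 110 and 63 wells of the 3 conditions and S-7 held 43, 80 and 7, with plate 6 included. The part of these clusters in the differences of FB-like wells was not tested. A further 27 wells (S-11, led by Msln, Upk1b and Myl7) and 17 wells (S-12, led by Mmp7, Tm4sf4 and Epcam) passed the sort and were left out of every type.

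Dkk3 was the member called higher in FB-like wells in both injuries. In FB-like cells of the 10x libraries Dkk3 was not higher after CCl4 beyond counting error. Its level there was 91.3 CPM [87.2 to 95.6] in uninjured and 93.8 CPM [89.3 to 98.5] in CCl4 6 wk cells. Uninjured portions of plates 1 to 5 were at 252, 228, 236, 314 and 332 RPM, and BDL portions at 661, 917, 1135, 917 and 512 RPM. CCl4 portions were at 585, 579, 524 and 664 RPM. Both injured groups lay above every uninjured portion, and the CCl4 values fell within the BDL range. By edgeR's quasi-likelihood test with Benjamini-Hochberg adjustment, the log2 fold change of Dkk3 was 1.60 (SE 0.228, adjusted p = 0.00419) after BDL, where 53 of 13411 genes were called (0.395%), and 1.13 (SE 0.236, adjusted p = 0.0372) after CCl4, where 91 were called (0.679%).

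The call was lost with plate as a term in the same edgeR test, where Dkk3 changed by 1.57 (adjusted p = 0.130) after BDL and 1.09 (adjusted p = 0.532) after CCl4. Leaving out 1 portion kept the BDL call in 14 of 14 edgeR fits but the CCl4 call in 4 of 14, each without a BDL portion (adjusted p = 0.0293 to 0.125 over the 14), so that leaving out any uninjured or CCl4 portion, or BDL portion 2 of plate 1, ended it. With S-8 joined to the FB-like wells, its values were 1.26 (edgeR adjusted p = 0.0263) and 0.81 (adjusted p = 0.203). Dkk3 within S-8 was at 349 to 1400 RPM in uninjured portions (5 portions with S-8 wells) and 717 to 917 RPM in 3 CCl4 portions. The summed FB markers of FB-like wells moved the other way, at 31319 to 52071 RPM in uninjured, 12126 to 37107 RPM in BDL and 13196 to 26326 RPM in CCl4 portions, and their part in the result was not tested.

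**Figure D5:**
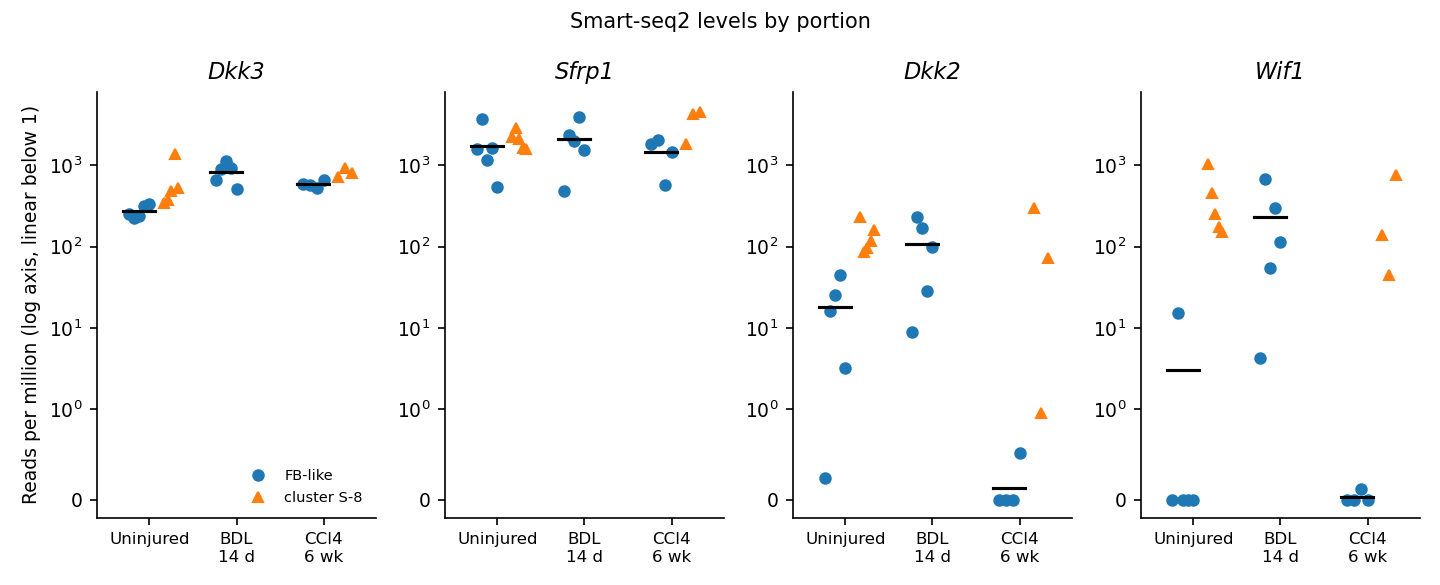
RPM (symmetric log axis) of Dkk3, Sfrp1, Dkk2 and Wif1 in each Smart-seq2 portion, for FB-like wells (circles, with the mean as a bar) and for the unnamed cluster S-8 (triangles). Dkk3 circles of BDL (512 to 1135) and CCl4 (524 to 664) portions lie above all uninjured ones (228 to 332), and the uninjured Wif1 triangles (150 to 1042) lie above the uninjured circles (0 to 15.4).

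Dkk2 and Wif1 varied widely between portions. Dkk2 in FB-like wells was at 0.238, 16.4, 25.9, 44.6 and 3.21 RPM in uninjured portions, at 8.82, 233, 168, 28.7 and 98.4 RPM in BDL portions, and at 0, 0, 0 and 0.514 RPM in CCl4 portions. In S-8, Dkk2 was at 85.7 to 234 RPM in 5 uninjured portions (mean 139) and at 0.958 to 304 RPM in 3 CCl4 portions (mean 125), so its highest values outside BDL sat there and overlapped. In FB-like wells its highest CCl4 portion lay above the lowest uninjured one and below the other 4, and BDL overlapped with uninjured. Its edgeR values were 2.54 after BDL (adjusted p = 0.432) and -7.17 after CCl4 (adjusted p = 0.0601), neither of which passed. The CCl4 difference of Dkk2 did pass in DESeq2 (adjusted p = 2.91e-04), and in edgeR without a filter on low counts or without the uninjured portion of plate 1 (adjusted p = 0.0385). The FB-like cells of the 10x library were also lower in Dkk2 after CCl4, as given above, but the 2 sets are not alike. The 10x set includes cluster 1-11, which has Ptn and Osr2 among its leading genes as S-8 does, whereas the FB-like wells leave S-8 out.

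Wif1 in FB-like wells was at 15.4 RPM in the plate 2 uninjured portion and 0 in the other 4, at 4.25, 674, 54.2, 300.2 and 114 RPM in BDL portions, and at 0, 0, 0.123 and 0 RPM in CCl4 portions. All 5 BDL portions had Wif1 reads, and the edgeR test did not call it (log2 fold change 6.28, adjusted p = 0.146). Without the plate 2 portion every uninjured portion was at 0 and edgeR called Wif1 (adjusted p = 0.0169). The uninjured Wif1 reads sat in S-8, which was at 150 to 1042 RPM in uninjured and 44.4 to 761 RPM in CCl4 portions. S-8 held 81 uninjured, 34 CCl4 and 0 BDL wells and was outside the FB-like wells in both fits above. The uninjured FB-like values therefore exclude these reads. Counted over all wells of a portion, 4.76% to 18.2% of uninjured, 1.26% to 7.89% of BDL and 2.44% to 13% of CCl4 wells had a Wif1 read.

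Notum, too low for the test, was at 0 to 0.164 RPM in uninjured FB-like wells, and at 0, 79.3, 3.07, 0 and 10.5 RPM in BDL portions. The value of 79.3 RPM came from 1 well, as 1 of the 76 wells of that portion had a Notum read. Counted over all wells of a portion, 3.17% to 16.4% of uninjured, 0% to 2.61% of BDL and 0.813% to 5.79% of CCl4 wells had a Notum read. The FB-like values exclude S-8, where Notum was at 70.3 to 169 RPM in uninjured portions. S-8 thus held Wif1, Notum and Dkk3 reads together with Rspo1 at 12.2 RPM or less in uninjured portions, and Ptn and Osr2 were among the leading genes of S-8 as of cluster 1-11 in the 10x cells.

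The remaining members of FB-like wells did not pass in either injury. Sfrp1 ranged from 549.9 to 3672 RPM in uninjured, 489 to 3982 RPM in BDL and 577 to 2060 RPM in CCl4 portions. Rspo1 ranged from 60.0 to 147 RPM, 2.35 to 189 RPM and 85.7 to 186 RPM, and Wnt5a from 51.8 to 102 RPM, 55.1 to 147 RPM and 24.8 to 79.7 RPM, in the same order. Sfrp2 spread from 0 to 1097 RPM over uninjured portions alone. All of these groups overlapped.

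In VSMC-like wells no member was called among 7 tested, where 36 of 13026 genes (0.276%) were called after BDL and 0 (0%) after CCl4. After CCl4, 639 of the 13026 genes had an unadjusted p under 0.05 in edgeR, about as many as this cutoff gives by chance. DESeq2 called 55 genes after CCl4. Rspo1 was at 0.699 to 65.3 RPM in uninjured, 56.9 to 95.4 RPM in BDL and 29.7 to 80.0 RPM in CCl4 portions, with edgeR log2 fold changes of 1.16 (SE 0.623, adjusted p = 0.652) and 0.64. Rspo3 was at 0 to 35.8 RPM (mean 9.56) in uninjured and 0 to 43.1 RPM (mean 18.3) in CCl4 portions. With 1 portion left out, its CCl4 log2 fold change was 0.12 to 2.63, never called. The drop of Rspo3 in the 10x VSMC-like cells was thus not seen in these wells. HSC-like wells, all uninjured and from plate 6, had Rspo3 at 735 and 805 RPM, Dkk3 at 82.1 and 173 RPM, and Rspo1 at 0.0147 RPM or less.

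Of the 61 other Wnt pathway genes, 22 reached 10 CPM in FB-like cells of the 10x libraries, and 2 were higher past the fold after CCl4, where 1.96% of all genes were past it: Ccnd1, which drives entry into the cell cycle, from 11.9 to 25.6 CPM, and the transcription factor Myc, from 35.5 to 78.0 CPM. None was lower past the fold. In VSMC-like cells, with their different clusters, 1 of 18 was past the fold (3.31% of all genes), Ccnd1, from 43.2 to 200.03 CPM. The median log2 ratio of the list in FB-like cells was 0.02.

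In HSC-like cells 15 pathway genes reached 10 CPM. At 72 h the ligand Wnt4 was higher, from 118 to 269 CPM, and 3 were lower: the receptors Fzd8 (26.0 to 9.03 CPM) and Lrp5 (52.5 to 25.5 CPM), and Ccnd1 (58.2 to 28.9 CPM). These were 4 of 15, where 16.3% of all genes were past the fold. At 6 wk none was, against 4.4% of all genes. The list's median log2 ratio was -0.33 at 72 h and -0.24 at 6 wk, beside -0.22 for all genes at both times.

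Of 4 feedback, target and receptor genes followed in all comparisons, none was past the fold, which needs 10 CPM in the higher library. Axin2 in HSC-like cells and Lgr5 in FB-like and HSC-like cells stayed under 10 CPM and could not pass. For them the rule says nothing about a change. Axin2, a negative regulator and common target, was at 18.2 and 15.2 CPM in FB-like cells, and at 5.84, 9.89 and 9.64 CPM in HSC-like cells of uninjured, 72 h and 6 wk libraries. Nkd1, another feedback inhibitor, was at 430, 337 and 300 CPM in HSC-like cells and at 57.7 and 46.4 CPM in FB-like cells. Lgr5, an R-spondin receptor, was at 2.97 and 1.92 CPM in FB-like cells, and Lef1 had 2 UMIs in uninjured FB-like cells.

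In Smart-seq2 FB-like wells, 38 of the 61 pathway genes were tested and 1 was called in each injury, where 0.395% (BDL) and 0.679% (CCl4) of all genes were called. It was the receptor Fzd1, with edgeR log2 fold changes of 2.47 (SE 0.335, adjusted p = 0.00297) after BDL and 1.92 (SE 0.341, adjusted p = 0.0144) after CCl4. With S-8 joined, Fzd1 was at 0.91 (adjusted p = 0.321) and 0.57 (adjusted p = 0.874) in the same edgeR test. Axin2 (0.44 and -1.60), Nkd1 (-0.58 and -0.06), Lef1 (8.11 after BDL, adjusted p = 0.148) and Lgr5 (-4.21 and 2.95) were not called. The list's median log2 fold change was 0.57 after BDL and -0.09 after CCl4, beside 0.005 and -0.002 for all genes. After BDL the 8 target and feedback genes tested had a median of 1.83, while 13 receptors were at -0.26 and 4 R-spondin axis genes at -0.78. In VSMC-like wells 0 of 33 were called in either injury, where 0.276% (BDL) and 0% (CCl4) of all genes were called.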

How the data were processed

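The members, the gene lists and the comparisons were chosen with earlier results of these data known. The authors deposited UMI counts per gene and cell for each 10x library (Cell Ranger 2.1.0, mm10) and, for Smart-seq2, read counts per gene and well (STAR, mm10 with eGFP and ERCC sequences). Here cells with at least 300 genes and at most 30% mitochondrial UMIs were kept; wells were kept within 3 median absolute deviations. Kept libraries held 25962957 to 86661230 UMIs, and portions a median of 388553 to 483893 reads per well.

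Log-normalised counts of 2000 variable genes (members and pathway genes left out) gave 10 principal components and Leiden clusters at resolution 0.8 (leidenalg 0.10.2, igraph 0.11.9). Clusters were named from fixed markers, with a scoring rule set after the clusters were seen. Doublets were scored against simulated ones and kept. An unnamed protocol 1 cluster of 80 and 96 cells was almost wholly doublet calls, and it was among the groups of cells used for the Pearson r values.

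Counts summed per portion with at least 5 wells, plates 1 to 5, were tested with edgeR 4.0.16 (TMM, filterByExpr, glmQLFTest, adjusted p under 0.05; R 4.3.3), with DESeq2 1.42.0 as an alternative. The labels of plate 6 do not tie a protocol to each portion, so it entered as an alternative only. On simulated counts of the BDL FB-like comparison (13411 genes, 200 changed 4-fold), 77 were called. Named genes were the members, pathway genes past the fold or called, and Axin2, Lef1, Nkd1 and Lgr5.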

Additional observations from a re-analysis of the deposited data

Results flagged for a closer look

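Of 54 groups of 4 or 5 portions, 16 had 1 portion far from the rest by Dixon's test, which chance gives in about 1 of 20 groups of normally distributed values. Values near 0 are not so distributed, and a group at 0 in all portions but 1 meets the limit by construction. The number therefore cannot be judged against that rate. Values are RPM, with the nearest other portion in brackets.

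In FB-like wells, BDL portion 2 of plate 1 stood apart for Notum at 79.3 (10.5) and for Wnt5a at 147 (66.6), and BDL portion 1 of plate 1 for Sfrp2 at 611 (113). The uninjured portion of plate 2 had the only uninjured Wif1 reads, at 15.4 (0). A pair of CCl4 portions of plate 5 had a few reads where the others had 0, with Wif1 at 0.123 and Dkk2 at 0.514.

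In VSMC-like wells, CCl4 portion 1 of plate 5 stood apart for 4 members: Dkk2 at 12.8 (0.153), Notum at 3.83 (0.0254), Sfrp1 at 13.5 (1.81) and Sfrp2 at 11.2 (0.661). The FB markers summed to 2273 RPM in these wells, within the 1632 to 3489 RPM of the other CCl4 portions, and their part was not tested. Uninjured VSMC-like wells stood apart for Notum on plate 2 at 6.12 (0.764), Sfrp2 on plate 5 at 7.68 (1.99) and Wif1 on plate 3 at 2.76 (0.420). The rest were Sfrp1 in the BDL portion of plate 4 at 10.5 (3.63), Sfrp4 in BDL portion 2 of plate 2 at 4.56 (0.0215), and Sfrp4 in CCl4 portion 1 of plate 3 at 2.87 (0.144).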

How the results depend on the processing

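The 9 of 10 members highest in FB-like cells stayed so without doublets, with cells typed by their own markers and with per-cell means. For 10x folds, weighting FB-like clusters by uninjured cells left 1 member past the fold (Dkk2), and gave 151 VSMC-like genes; without cluster 1-13, 0 VSMC-like members passed. Weighting could not be given a value for HSC-like cells, since clusters shared with the uninjured library held only 0.423% and 1.34% of its cells. With cells split at the median zonation score, 0 members were portal in every library (1, Sfrp2, otherwise), and thinning left 0 members higher and 1 (Notum) lower with each step of collagen. Few UMIs set both: Sfrp2 at 6 wk had 4 portal and 1 central UMIs. Thinned Notum had 6, 4 and 3 UMIs at 6 wk, with overlapping intervals. Without thinning, Notum did not fall with each step in uninjured or 6 wk cells.

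For FB-like wells after BDL, the genes called were 399 by DESeq2, 4 with plate as a term and 89 with the plate 6 portion, and 0 members with plate as a term. After CCl4 they were 353 by DESeq2 and 9 with plate as a term, with 2 members (Dkk2, Dkk3) by DESeq2 and 0 with RLE scaling, plate as a term, wells typed by own markers, no well filter, S-8 joined or the plate 6 portion. VSMC-like calls were 255 by DESeq2 and 1 with plate as a term after BDL, and 55 by DESeq2 after CCl4. Leaving out 1 portion gave 18 (uninjured, plate 3) to 58 genes and 1 to 2 members after BDL, and 40 (uninjured, plate 3) to 110 genes and 0 to 1 members after CCl4, in FB-like wells; in VSMC-like wells 6 to 40 genes after BDL, 0 after CCl4 and 0 members. Dkk3 after BDL was called in 14 of 14 such fits (1.45 to 1.74) and after CCl4 in 4 of 14 (1.05 to 1.20). Without the plate 2 uninjured portion, Wif1 was called after BDL.

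Log2 fold changes that turned sign, none called, were as follows. In FB-like wells after BDL, plate as a term gave Wnt5a 0.043, Sfrp1 -0.19 and Sfrp2 1.04; a minimum of 10 wells Rspo1 0.14 and Sfrp1 -0.10; own markers Rspo1 0.37 and Wnt5a 0.35; S-8 joined Rspo1 0.48 and Wnt5a 0.40; the plate 6 portion Rspo1 0.0039 and Wnt5a 0.058. After CCl4, plate as a term gave Sfrp1 0.85 and Wif1 2.57. In VSMC-like wells, own markers gave Sfrp1 0.67 after BDL and Sfrp2 -1.71 after CCl4, no well filter Sfrp2 -2.16, and plate as a term Wnt5a 0.70 and Dkk3 0.12 after CCl4. The causes were not tested. With 1 portion left out, FB-like ranges were Rspo1 -0.59 to 0.17 and Sfrp1 -0.10 to 0.76 after BDL, and Sfrp1 -0.46 to 0.26 and Wif1 -8.79 to 2.95 after CCl4; VSMC-like ranges were Dkk3 -0.35 to 0.42 and Rspo3 -2.46 to 0.10 after BDL, and Dkk3 -0.87 to 0.19 and Sfrp2 -2.21 to 2.16 after CCl4. No paired analysis was possible because the labels give the portions no replicate numbers, other than the fit with plate as a term given above, which compares portions of the same plate.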

Other observations

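The naming rule also called 195 cells at 72 h and 27 cells at 6 wk of protocol 2 FB-like. Their markers go against the name at 72 h: the VSMC markers summed to 4840 CPM, with Acta2 at 3012 CPM, and the FB markers to 4280 CPM, far below protocol 1 FB-like cells. These 195 cells had Rspo3 at 302 CPM, Sfrp1 at 123 CPM, Dkk3 at 90.3 CPM and Wnt5a at 51.6 CPM. They entered no comparison of conditions, but were among the groups of cells used for the Pearson r values. These 195 cells showed no Wif1 or Dkk2, as follows. They had 0 UMIs of Wif1 and Dkk2, after genes in fewer than 3 cells of the library were set to 0.

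Cells with Dkk2 and Sfrp4 overlapped in uninjured FB-like cells: of 509 cells with a Dkk2 UMI, 33.4% had Sfrp4, against 12.7% of the rest. In the CCl4 6 wk library the shares were 17.8% and 14.3%.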
